A study of Mus musculus with 4 samples.

Results

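The 9 genes described here encode transcription factors that set up or maintain the interleukin-17 program of γδ T cells: Rora, Sox13, Sox4, Maf, Zbtb16, Batf, Ahr, Irf4 and Id2. They were taken by symbol, as known factors of this program, and all 9 stood among the 22865 gene symbols of the count table. RNA was sequenced from lung γδ T cells of female C57Bl/6 mice at 10 weeks of age, either Aire-/-, lacking the regulator of tissue-restricted gene display in the thymus, or Aire+/+, their intact counterparts, with 2 libraries per genotype. The cells were viable and CD45+, carried the γδ receptor, and lacked TCRβ, CD27 and Vγ1, 2, 4 and 5. Each library held 500 cells and was made with Smart-Seq2, which copies whole transcripts from few cells. No further agent or allele is named, the Aire allele is not described, and whether a genotype's libraries stem from different mice is not stated, so p-values rest on a spread that may be technical.

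γδ T cells that make interleukin-17 are largely programmed in the thymus, before they seed the lung and other barrier tissues. As background, the HMG-box proteins Sox13 and Sox4 act early in that choice, and the basic leucine zipper protein Maf consolidates it. The nuclear receptor Rora, the ligand sensor Ahr, and Batf with its partner Irf4 support interleukin-17 programs, Zbtb16 (PLZF) marks innate-like lymphocytes, and Id2 restrains the E proteins.

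Total counts ran from 1106891 to 1265239 per library. All 9 of 9 markers shared by T cells were detected in every library, summing to 2240 and 2300 CPM in Aire-/- and to 1750 and 2320 CPM in Aire+/+ libraries; they do not tell γδ from other T cells. B cell markers summed to 2700 and 2020 CPM in the Aire-/- libraries and to 4110 and 2600 CPM in the Aire+/+ libraries, where CPM is the count relative to library size, adjusted by edgeR's TMM factors. That sum exceeded the one of the T cell markers in 3 of the 4 libraries, all but Aire-/- replicate 2. Macrophage and monocyte markers summed to 143 and 194 CPM in Aire-/- and to 483 and 164 CPM in Aire+/+ libraries. Of them 0 of 5 tested members lay above 0 in log2 fold change (Aire-/- minus Aire+/+). Natural killer cell markers summed to 68.5 and 132 against 192 and 138 CPM, mostly Gzma, with 0 of 3 tested members above 0. Klra8 and Klra4 were at 0 counts throughout. Ncr1, too low to test, went the other way without overlap, at 6.39 and 19.8 against 1.62 and 5.13 CPM. The ribosomal RNA precursor Rn45s took 20.4 and 19.4% of Aire-/- counts and 17.4 and 16.2% of Aire+/+ counts, without overlap. Dendritic cell markers summed higher in both Aire-/- libraries, at 70.3 and 47.1 against 24.2 and 42.8 CPM, with Xcr1 the 1 tested member (0.82). Markers of type 2 innate lymphoid cells overlapped at 88.6 and 133 against 98.6 and 121 CPM, with 2 of 3 tested members above 0. Markers of other lung cells summed to 135 and 117 against 162 and 145 CPM. The part of these other transcripts in the factors' values was not tested. The 4 CD3 chain genes (Cd3d, Cd3e, Cd3g and Cd247), used as a T cell reference, summed to 1390 and 1504 CPM in Aire-/- and to 1004 and 1532 CPM in Aire+/+ libraries. Aire+/+ replicate 1 thus had the lowest T cell and the highest B cell and macrophage sums of the 4 libraries. In such bulk samples fewer cells of a type and less RNA per cell cannot be told apart.

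**Figure D1:**
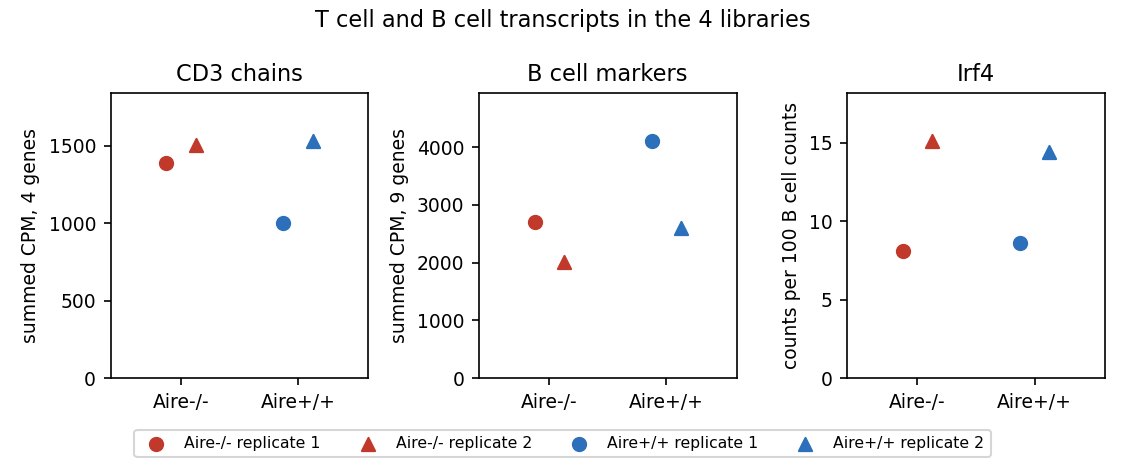
Summed CPM of the 4 CD3 chain genes (left) and of 9 B cell markers (middle), and Irf4 counts per 100 counts of Ms4a1, Cd79a and Cd79b (right), for each library, with circles for replicate 1 and triangles for replicate 2. Aire+/+ replicate 1 is lowest for the CD3 chains, at 1004 CPM, and highest for the B cell markers, at 4110 CPM.

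No factor passed the genotype test. Sox13 and Maf were higher and Irf4 and Batf lower in both Aire-/- libraries than in both Aire+/+ libraries, while Rora, Zbtb16, Ahr and Id2 overlapped between genotypes. edgeR's quasi-likelihood test over 9783 genes, with Benjamini-Hochberg adjustment, called 0 of the 8 tested factors at an adjusted p under 0.05. It called 2 genes of all those tested (0.0204%). Adjusted p ran from 0.89 to 0.99 over the 8 factors. Sox4 had too few counts to be tested in this fit.

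Among the 8 tested factors, 5 had a log2 fold change (Aire-/- minus Aire+/+) above 0 and 3 below it, with a median of 0.12 against 0.01 over all genes. At an unadjusted p under 0.05 there were 2 factors, Sox13 and Maf, against 274 higher and 271 lower genes in the whole table (5.57%). DESeq2's Wald test and limma-voom called 3 genes (0.0307%) and 1 gene (0.0102%) of the table, and 0 of the factors. An exact permutation test on 2 libraries against 2 could not give a two-sided p below 0.33.

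For the tested factors whose libraries did not overlap between genotypes, the promoters given by RefSeq (GRCm38.p6) are shown to set out the DNA in front of each gene. An entry was at hand for Sox13, Batf and Irf4 among these, and for 6 of the 9 factors in all (also Rora, Sox4 and Id2). Each stretch runs 5′ to 3′ on the strand of the gene and ends just before the first annotated start. It is chr1:133424378-133424462 (minus strand) for Sox13, chr12:85686470-85686668 (plus strand) for Batf and chr13:30748983-30749225 (plus strand) for Irf4. Capitals mark a match to any of the 6 motifs below.
Sox13: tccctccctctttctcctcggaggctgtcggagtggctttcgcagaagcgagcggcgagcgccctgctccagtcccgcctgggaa
Batf: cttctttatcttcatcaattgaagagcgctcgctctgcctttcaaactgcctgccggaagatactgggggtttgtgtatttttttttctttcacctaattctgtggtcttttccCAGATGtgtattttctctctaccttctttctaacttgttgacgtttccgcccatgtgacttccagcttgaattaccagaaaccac
Irf4: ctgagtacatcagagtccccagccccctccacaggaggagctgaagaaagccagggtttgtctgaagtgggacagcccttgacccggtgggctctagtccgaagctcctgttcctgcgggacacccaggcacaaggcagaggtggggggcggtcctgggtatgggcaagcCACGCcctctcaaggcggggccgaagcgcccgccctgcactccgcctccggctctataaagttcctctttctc

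The motifs are letters bound by these factors or their partners, sought on both strands of windows of 300 bases (250 before and 50 after the start) at 32817 RefSeq starts. The E-box CAGNTG of E proteins, the partners of Id2, was in the windows of Batf, Id2 and Sox4, 3 of 6, against 51.4% of all windows. The core GCGTG of the xenobiotic response element bound by Ahr was in those of Irf4, Rora and Sox4, 3 of 6, against 32.4%. The core AGGTCA bound by ROR proteins was in that of Sox4, 1 of 6, against 16.3%. The SOX core AACAAT (10.7% of all windows), the Maf core TGCTGA (19.5%) and the AP-1 site TGANTCA (7.81%) were in 0 of 6. CAGNTG at Batf and GCGTG at Irf4, the latter on the opposite strand, are the matches in the stretches shown. The motifs share no letters there, a match is a description of letters only, and no count bears on binding.

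As a description of levels between genes, CPM was divided by the length of the longest annotated transcript. Id2 was the most abundant factor at 142 ± 36.5 CPM per kb (SD, n = 4 libraries) and ranked between 237 and 430 among the 21556 symbols that had a length. Rora followed at 82.9 ± 19.0 CPM per kb, ranking between 468 and 924, and Batf at 50.3 ± 4.87 CPM per kb. Maf (33.6 ± 7.90), Irf4 (33.4 ± 7.58), Zbtb16 (29.8 ± 8.90) and Sox13 (24.0 ± 7.88 CPM per kb) came next, and each of these neighbours overlapped the next over the 4 libraries. Ahr was lower at 7.77 ± 1.78 CPM per kb, with ranks from 5086 to 7118, and Sox4 lowest at 0.75 ± 0.59 CPM per kb. Id2, Rora and Batf were each above their next neighbour in every library, as was Sox13 above Ahr and Ahr above Sox4. Batf no longer separated from Maf when the union of exons served as length, at 34.1 against 25.9 CPM per kb, and Maf then lay below Irf4 (32.5 CPM per kb).

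Ranks by CPM per kb are given for Aire-/- replicates 1 and 2, then Aire+/+ replicates 1 and 2, with 1 as the most abundant gene. Id2 ranked 237, 430, 391 and 241, Rora 581, 468, 924 and 487, and Batf 1183, 1173, 985 and 968. Maf ranked 1489, 1314, 2386 and 1753, Zbtb16 2115, 1700, 2931 and 1348, and Sox13 2022, 1772, 3819 and 2554. These 3, Rora and Ahr took their worst rank in Aire+/+ replicate 1, the library with the lowest CD3 sum. Irf4 ranked 2425, 1756, 1493 and 1331, better in both Aire+/+ libraries. Ahr ranked 5086, 5677, 7118 and 5446 and Sox4 14425, 15434, 11622 and 11834, where 15434 is shared by all genes with 0 counts.

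**Figure D2:**
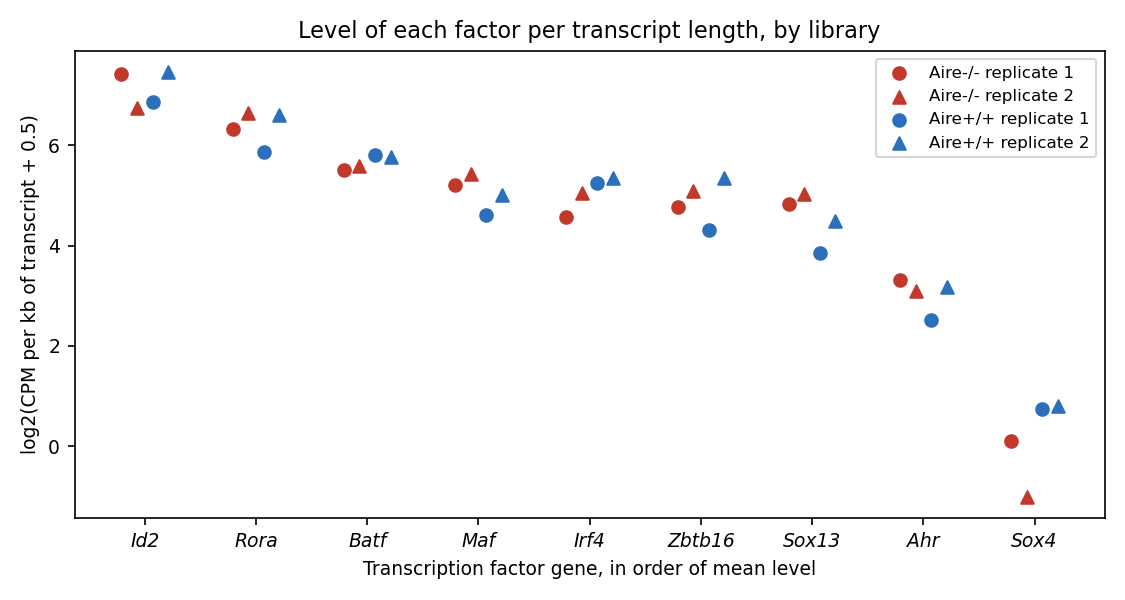
Level of each factor, as log2(CPM per kb of transcript + 0.5), in each of the 4 libraries, with genes in order of their mean. Id2 and Rora lead in every library, Maf to Sox13 overlap, and Sox4 lies lowest, with 0 counts in Aire-/- replicate 2.

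The HMG-box genes were 1 well expressed factor, Sox13, and 1 barely detected, Sox4. Sox13, which is expressed early in the γδ lineage and promotes interleukin-17 fate, lies on chromosome 1 (133382303 to 133424377, minus strand, GRCm38). It had 113 and 126 counts in Aire-/- and 64 and 95 counts in Aire+/+ libraries, or 103 and 119 against 51.7 and 81.3 CPM. Both Aire-/- libraries lay above both Aire+/+ libraries, and the lower Aire+/+ value was that of replicate 1. The log2 fold change of 0.74 (SE 0.28, 95% interval 0.14 to 1.34, adjusted p = 0.89, edgeR) was the highest of the 8, with an interval that is for 1 gene and not adjusted for the number of genes.

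Sox4, a factor of immature lymphocytes that acts with Sox13 in the thymus, lies on chromosome 13 (28948919 to 28953713, minus strand). It had 3 and 0 counts in Aire-/- and 7 and 7 counts in Aire+/+ libraries, where a count of 0 allows up to 3 counts, or 2.71 CPM, in that library. Scaled to total counts the Aire+/+ to Aire-/- ratio was 4.34, with an exact 95% interval from 1.21 to 23.6 for counting error alone, and Smart-Seq2 reads are not independent molecules. At 3 counts against 14 the gene did not pass the filter on low counts. In the edgeR fit without that filter it was tested and not called.

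Maf was higher in both Aire-/- libraries and Zbtb16 was not. Maf, a basic leucine zipper protein required for interleukin-17-producing γδ T cells, lies on chromosome 8 (115682942 to 115707794, minus strand). Its counts were 254 and 287 in Aire-/- and 188 and 234 in Aire+/+ libraries, or 232 and 271 against 152 and 200 CPM. The Aire-/- pair lay above the Aire+/+ pair without overlap, at a log2 fold change of 0.51 (SE 0.22, interval 0.04 to 0.99, adjusted p = 0.89, edgeR). Zbtb16, the BTB-zinc finger protein PLZF of innate-like T cells, lies on chromosome 9 (48654297 to 48836222, minus strand). Its values were 136 and 171 CPM in Aire-/- and 98.6 and 204 CPM in Aire+/+ libraries. Those Aire+/+ libraries held both the lowest and the highest value, and the log2 fold change was 0.02 (SE 0.30, interval -0.64 to 0.68, adjusted p = 0.99).

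Rora and Ahr both respond to small ligands. Rora, a nuclear receptor that supports interleukin-17 expression, lies on chromosome 9 (68653786 to 69388246, plus strand). It had 944 and 1141 counts in Aire-/- and 776 and 1220 counts in Aire+/+ libraries, or 862 and 1076 against 627 and 1044 CPM. Aire+/+ replicate 1 was lowest, Aire-/- replicate 1 lay between, and both replicates 2 were close together. The log2 fold change was 0.21 (SE 0.23, interval -0.28 to 0.71, adjusted p = 0.97). Without Aire+/+ replicate 1 the log2 fold change was -0.11. Ahr, the aryl hydrocarbon receptor, lies on chromosome 12 (35497974 to 35535038, minus strand). It stood at 52.1 and 44.3 CPM in Aire-/- and 29.1 and 47.1 CPM in Aire+/+ libraries, again lowest in Aire+/+ replicate 1 (log2 fold change 0.34, SE 0.35, interval -0.42 to 1.10, adjusted p = 0.97). That value was 0.03 without Aire+/+ replicate 1 and 0.72 without Aire+/+ replicate 2.

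Batf and Irf4 bind composite DNA elements together in activated T cells, and Irf4 also directs plasma cell formation in B cells. Irf4 lies on chromosome 13 (30749226 to 30766976, plus strand) and had 121 and 164 counts in Aire-/- and 222 and 225 counts in Aire+/+ libraries. These are 110 and 155 against 179 and 192 CPM, with both Aire-/- libraries below both Aire+/+ libraries. The log2 fold change of -0.49 (SE 0.23, interval -0.99 to 0.02, adjusted p = 0.91, edgeR) was the lowest of the 8. Batf, on chromosome 12 (85686669 to 85709087, plus strand), stood at 42.9 and 45.3 CPM in Aire-/- and 52.5 and 51.3 CPM in Aire+/+ libraries. Its replicates were the tightest of the group and did not overlap, at a log2 fold change of -0.24 (SE 0.31, interval -0.91 to 0.44, adjusted p = 0.98).

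B cell markers are given beside Irf4 and Batf, since B lineage cells also express Irf4. All 9 of 9 B cell markers had a log2 fold change below 0, from -0.22 for Cd22 to -0.93 for Cd79a, and none was at 0 counts in any library. Of 5 tested plasma cell markers 3 lay below 0, while Sdc1 (0.29) and Xbp1 (0.10) lay above it. Igj, the joining chain of polymeric antibodies, had 0 and 4 counts in Aire-/- against 1674 and 827 counts in Aire+/+ libraries. The plasma cell sum was 330 and 438 against 1710 and 1120 CPM with Igj. Without Igj it was 330 and 434 against 357 and 412 CPM, where the genotypes overlapped. Sdc1 was the largest part of that remainder, at 206.4 and 303.6 against 159.2 and 259.2 CPM. Mzb1 was lower in both Aire-/- libraries, at 54.8 and 40.55 against 113.9 and 75.29 CPM (log2 fold change -0.99). Xbp1 and Prdm1 overlapped between genotypes. Per 100 counts of Ms4a1, Cd79a and Cd79b, Irf4 had 8.07 and 15.1 counts in Aire-/- and 8.60 and 14.4 counts in Aire+/+ libraries. On that scale Irf4 overlapped between genotypes, as did Batf at 3.14 and 4.42 against 2.52 and 3.84 counts. Rora, Zbtb16 and Id2 overlapped too, while Sox13, Maf and Ahr lay above and Sox4 below in both Aire-/- libraries. The reference itself was lower in both Aire-/- libraries, at 1499 and 1086 counts against 2583 and 1564 counts in Aire+/+ libraries. Dividing by it raises all genes in Aire-/- relative to Aire+/+ libraries, so these overlaps and separations follow in part from the divisor. The share of all genes without overlap was not computed on that scale. Irf4 counts in the same libraries were 121 and 164 in Aire-/- and 222 and 225 in Aire+/+. The part of B lineage cells in the Irf4 and Batf values was not tested.

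Id2 lacks a DNA-binding region and blocks E proteins by pairing with them. It lies on chromosome 12 (25093799 to 25097140, minus strand) and stood at 337 and 208 CPM in Aire-/- and 226 and 345 CPM in Aire+/+ libraries. Each genotype held 1 high and 1 low library, and the log2 fold change was -0.06 (SE 0.26, interval -0.64 to 0.51, adjusted p = 0.99). Annotated genes on the opposite strand overlap exons of Rora, Maf, Ahr and Sox4 (Gm15511, Gm15655, Gm48236 and Gm26735). None of these 4 was in the count table. Of the CD3 reference genes, Cd247 shares exon sequence with Pou2f1 and Cd3e with Gm48719, both on the opposite strand, and Pou2f1 was in the count table. Cd247 also shares exon sequence with Gm16565 on the same strand, which was not in the count table and which strand cannot separate. Since the handling of strand is not given, reads from the opposite-strand partners cannot be told apart from reads of the factors or of the CD3 chains.

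Of the 8 tested factors, 2 (Sox13 and Maf) had both Aire-/- values above both Aire+/+ values and 2 (Irf4 and Batf) had both below. Over all tested genes 17.1% lay above in this way and 17.3% below, so 4 of 8 factors stand against 34.4% of genes. With so few genes, these counts are given as a description.

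**Figure D3:**
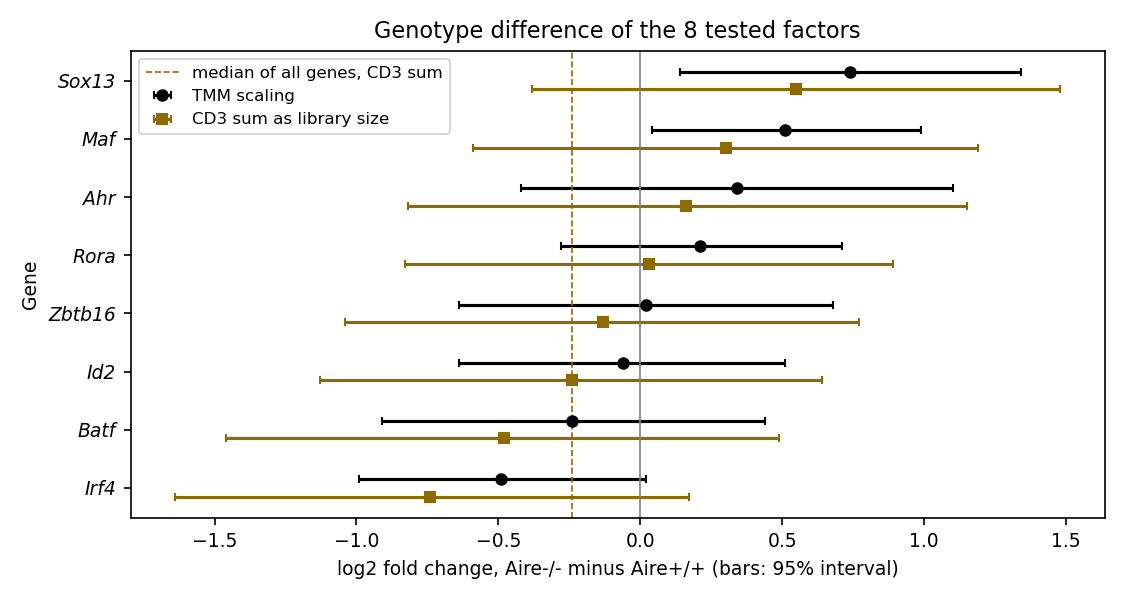
Log2 fold change (Aire-/- minus Aire+/+) of the 8 tested factors with its 95% interval, for TMM scaling (black circles) and with the CD3 sum as library size (brown squares), and the median of all genes on the CD3 scale (dashed, -0.24). Under TMM scaling the intervals of Sox13 and Maf lie above 0, and on the CD3 scale all 8 intervals span 0.

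Setting each factor against the CD3 chains gave levels relative to T cell transcripts. The summed CD3 counts were 1522 and 1595 in Aire-/- and 1242 and 1791 in Aire+/+ libraries. Rora then became nearly level, at 62.0 and 71.5 counts per 100 CD3 counts in Aire-/- against 62.5 and 68.1 in Aire+/+ libraries. Ahr likewise overlapped at 3.75 and 2.95 against 2.90 and 3.07 counts per 100 CD3 counts. Zbtb16 overlapped at 9.79 and 11.4 against 9.82 and 13.3 counts per 100 CD3 counts.

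Sox13 stayed apart on this scale, at 7.42 and 7.90 counts per 100 CD3 counts in Aire-/- against 5.15 and 5.30 in Aire+/+ libraries. Its replicates were closer to each other than on the CPM scale, with means of 7.66 ± 0.34 against 5.23 ± 0.11 (SD, n = 2 each). Maf also stayed apart, at 16.7 and 18.0 against 15.1 and 13.1 counts per 100 CD3 counts. Irf4 lay lower at 7.95 and 10.3 against 17.9 and 12.6 counts per 100 CD3 counts, with Aire+/+ replicate 1 highest. Irf4 itself had 222 and 225 counts in the Aire+/+ libraries, and replicate 1 had the lower CD3 sum. Batf lay lower at 3.09 and 3.01 against 5.23 and 3.35 counts per 100 CD3 counts, where again Aire+/+ replicate 1 stood out. Id2 was the same in both Aire+/+ libraries, at 22.5 counts per 100 CD3 counts each, and stood at 24.2 and 13.9 in the Aire-/- libraries.

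**Figure D4:**
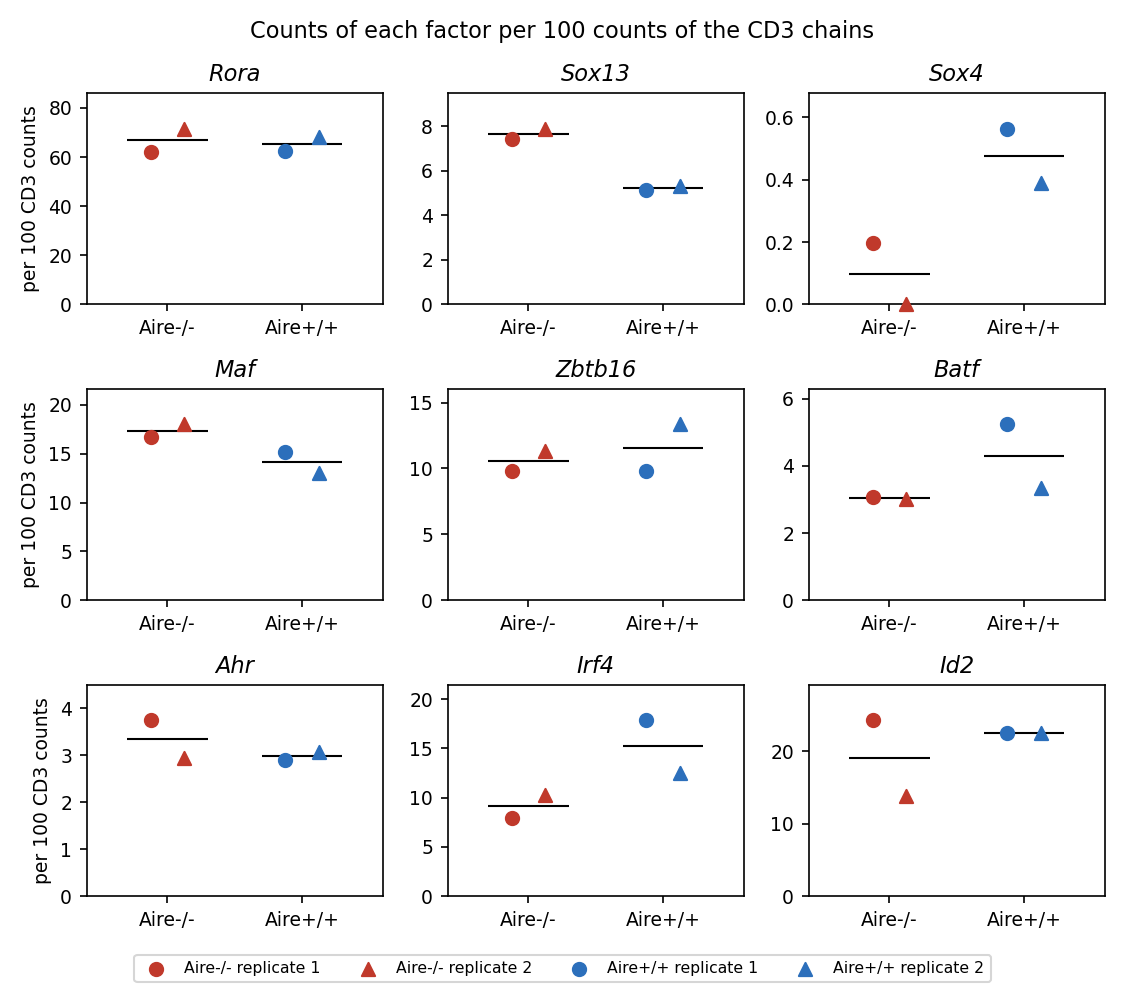
Counts of each of the 9 factors per 100 summed counts of Cd3d, Cd3e, Cd3g and Cd247, by genotype, with 1 point per library (circles replicate 1, triangles replicate 2) and a bar at the mean of each pair. Sox13 and Maf lie higher and Irf4, Batf and Sox4 lower in both Aire-/- libraries, and Rora overlaps.

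The edgeR fit with the CD3 sum as library size called 0 of the 8 factors and 7 of all 9783 genes (0.0716%), all 7 lower in Aire-/- libraries. At an unadjusted p under 0.05 there were 0 factors, 38 higher and 312 lower genes. On this scale the median of all genes was -0.24, and distances from it are given beside the values. Sox13 had a log2 fold change of 0.55 (SE 0.47, interval -0.38 to 1.48), which is 0.79 above that median, and Maf one of 0.30 (SE 0.46), 0.54 above it. Irf4 stood at -0.74 (SE 0.46, interval -1.64 to 0.17), which is -0.50 from the median, and Batf at -0.48 (SE 0.50), -0.25 from it. Rora stood at 0.03, Ahr at 0.16, Zbtb16 at -0.13 and Id2 at -0.24. Adjusted p was 1.00 for each of the 8.

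By CD3 ratio the same 4 tested factors did not overlap between genotypes. Over all tested genes 5.79% lay above without overlap on this scale and 22% below, 27.8% in all. Zbtb16 changed sign between the scalings, from 0.02 to -0.13, and its interval spanned 0 on both. The split of the 8 factors was 4 above and 4 below 0, where 26.6% of all genes lay above 0 against 50.9% under TMM scaling.

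Relatives and partners of the factors were followed in 7 lists, in which 0 genes were called in either direction under TMM scaling or on the CD3 scale. Of 12 tested ROR and Sox partners and HMG-box relatives 4 lay above and 8 below 0 (median -0.13, against 0.01 over all genes). On the CD3 scale 3 lay above and 9 below 0 (median -0.38, against -0.24 over all genes). The smallest p belonged to Ncoa1, a nuclear receptor coactivator (23.7 ± 1.19 against 40.3 ± 2.49 CPM, log2 fold change -0.76), Tox, an HMG-box protein of T cell development (183 ± 33.3 against 134 ± 15.4 CPM, 0.45), and Lef1, an HMG-box partner of β-catenin (0.86), with adjusted p of 0.90 or 0.91. Hmgb1, a chromatin protein, was the most abundant of the list at 148 CPM per kb.

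Of 13 Maf and BTB-zinc finger relatives 2 lay above and 11 below 0 (median -0.19). On the CD3 scale 1 lay above and 12 below 0 (median -0.43). Bach2, a repressor with a basic leucine zipper that is also prominent in B cells, had 84 and 45 counts in Aire-/- libraries against 170 and 101 in Aire+/+ ones (log2 fold change -0.91, SE 0.33, adjusted p = 0.89). Mafk, a small Maf protein, went the other way at 0.59 and Zbtb7a stood at -0.89. Nfe2l2, the oxidative stress factor NRF2, was the most abundant of the list per length (31.0 CPM per kb).

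Among 12 tested Batf and Irf partners 8 lay above and 4 below 0 (median 0.23). On the CD3 scale 5 lay above and 7 below 0 (median -0.02). Irf1, a factor induced by interferon, had 188 and 221 counts in Aire-/- libraries against 175 and 134 in Aire+/+ ones (0.57, SE 0.23, adjusted p = 0.89), and Fos stood at 0.45. Junb, the AP-1 protein that pairs with Batf and the most abundant of the list, had 797 and 2783 counts in Aire-/- libraries against 1769 and 591 in Aire+/+ ones. The spread of Junb within each genotype was wider than the difference between the genotypes (0.79, SE 0.49, adjusted p = 0.94). Batf2 and Batf3, the closest relatives of Batf, had at most 4 counts in any library.

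In the Ahr pathway 6 of 7 tested genes lay above 0 (median 0.17), but 3 of 7 on the CD3 scale (median -0.07). Arnt, the obligate partner of Ahr, had 81 and 85 counts in Aire-/- libraries against 64 and 64 in Aire+/+ ones (0.53, SE 0.28, adjusted p = 0.91), and Arnt2 stood at 0.32. Hsp90ab1, part of the chaperone complex that holds Ahr in the cytosol and the most abundant of the list at 602 CPM per kb, stood at 0.26. Tiparp, an Ahr target, had 60 and 207 counts in Aire-/- libraries against 213 and 94 in Aire+/+ ones (-0.02, SE 0.47, adjusted p = 0.99). The Ahr target genes Cyp1a1 (2 to 9 counts), Cyp1b1 (0 to 4) and Ahrr (2 to 7) were too low to test, and these 4 targets were named after their values were seen.

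The list of E proteins and Id relatives also held Ets1, Egr2 and Egr3, which are neither. Of its 6 tested genes 1, Ets1, lay above and 5 below 0 (median -0.27). On the CD3 scale 0 of 6 lay above 0 (median -0.55). Tcf4, an E protein with a strong role in B cells and plasmacytoid dendritic cells, had 64 and 69 counts in Aire-/- libraries against 120 and 80 in Aire+/+ ones (-0.42, SE 0.28, adjusted p = 0.94). Id3 stood at -0.47 and Egr3, a factor induced by receptor signalling, at -0.74. Ets1, the most abundant of the list at 170 CPM per kb, stood at 0.01. Id1 had 0 or 1 count in each library, so Id2 was the Id gene with most counts in every library.

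Among lineage factors of other T cell programs 7 of 11 tested genes lay above 0 (median 0.20), but 4 of 11 on the CD3 scale (median -0.05). Bhlhe40, a factor of cytokine production and residency, had 338 and 501 counts in Aire-/- libraries against 231 and 301 in Aire+/+ ones (0.81, SE 0.24, adjusted p = 0.82). Ikzf3, the factor Aiolos, was the most abundant at 188 CPM per kb (0.32), and Ikzf1 (Ikaros) stood at 0.20. Tbx21, the factor of type 1 cells, had 0 to 7 counts, and Gata3, the factor of type 2 cells, had 21 to 44 counts, both named after their values were seen.

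The T17 genes linked to these factors all lay above 0, 20 of 20 (median 0.40, against 0.01 over all genes), and 10 of 20 had both Aire-/- values above both Aire+/+ values, against 17.1% of all genes. On the CD3 scale 15 of 20 lay above 0 (median 0.20, against -0.24 over all genes). These genes were listed with earlier results of the same libraries known, so their direction is no independent evidence. Il23r, the interleukin-23 receptor chain, had 409 and 431 counts against 236 and 282 (0.85, SE 0.20, adjusted p = 0.61). Kcnk1, a potassium channel (1.12), and Podnl1 (0.69) followed, and the scavenger receptor Cd163l1 was the most abundant at 1006 CPM per kb. T cell markers lay above 0 for 7 of 9 genes in the same libraries. B cell markers lay below 0 for 9 of 9, as did macrophage and monocyte markers for 5 of 5, while the 1 tested dendritic cell marker lay above 0. The part of this mixture in the T17 values was not tested.

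**Figure D5:**
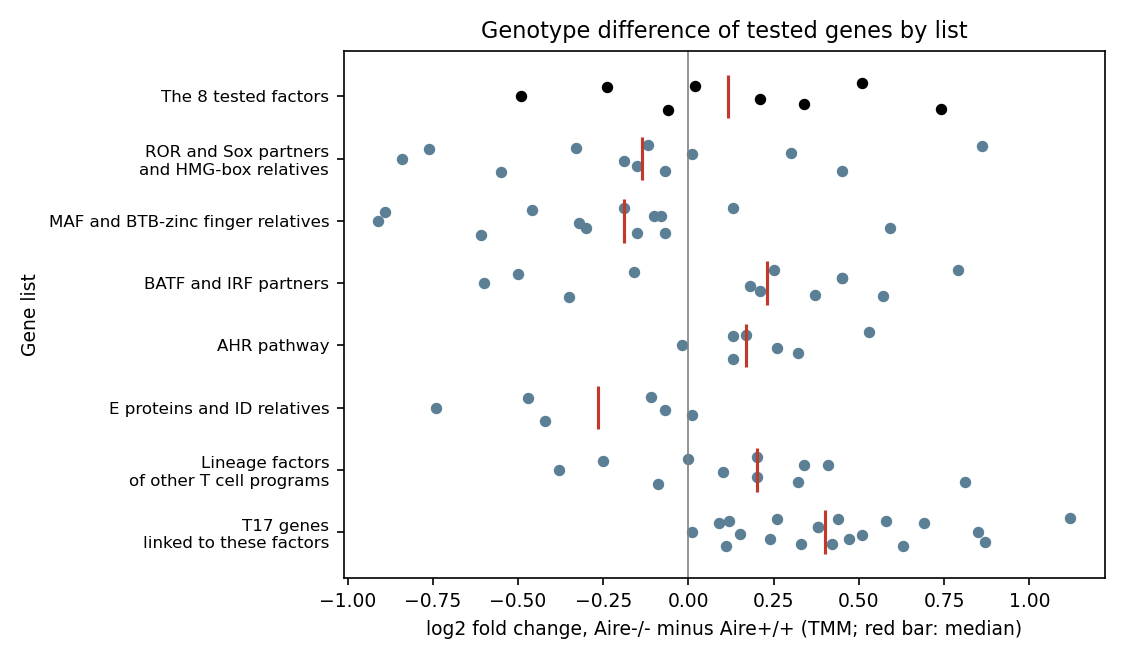
Log2 fold change (Aire-/- minus Aire+/+, TMM scaling) of each tested gene, 1 point per gene, for the 8 factors and 7 lists of partner and related genes, with a red bar at each median. The factors spread on both sides of 0 (median 0.12), while the T17 genes all lie above it (median 0.40).

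The genes most alike to each factor were sought among 72 tested genes of the 7 lists with a mean of at least 20 CPM, by the root mean square difference of log2 CPM centred on the mean over the 4 libraries. Maf lay closest to Cd163l1 (difference 0.08) and Serpinb1a (0.10), Sox13 to Podnl1 (0.10) and Il7r, the interleukin-7 receptor chain (0.12), Rora to Tmem176b (0.11) and Cd163l1 (0.12), and Ahr to Il18r1 (0.07) and Il17a (0.11). For these 4 factors both nearest genes were of the T17 list, and all 4 were lowest in Aire+/+ replicate 1, the library with the lowest CD3 sum. The T17 list was the longest, with 20 tested genes before the cut on level, and was drawn up with earlier results of these libraries known. Its place among the nearest genes is therefore partly set by the choice of candidates. Batf lay closest to Zbtb1 (0.08) and Hmgb1 (0.11), Irf4 to Runx3 (0.19) and Ncoa1 (0.20), Id2 to Tcf12 (0.11) and Runx2 (0.17), and Zbtb16 to Prdm1 (0.20) and Tmem176a (0.21). Likeness over 4 libraries is a description, and many genes can be alike at that number.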

How the data were processed

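The authors deposited raw counts by gene symbol in 1 table, whose 4 columns are the libraries, per the file headers. TopHat2 2.0.10, Cufflinks 2.2.1 and build mm10 are named without role per the submitters' processing notes. For the counting program, annotation, strand and duplicates, the steps are not given in the sources used. Libraries were grouped by title.

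Counts were tested with edgeR 4.0.16 (R 4.3.3) on all 4 libraries: TMM factors, filterByExpr (minimum count 10, total 15), quasi-likelihood F tests and Benjamini-Hochberg adjustment over 9783 of 22865 symbols. SE is the absolute log2 fold change over the square root of F, with 95% intervals from the t distribution. A second fit used the summed CD3 counts as library size. The replicate number was not a term, since the labels do not say that equal numbers mark a shared animal or day. Deviations from the genotype mean correlated at -0.0792 between same-numbered libraries and at 0.0792 between the others. With 2 libraries per genotype these values mirror each other and cannot settle a pairing. Lengths and coordinates came from GENCODE M21 (GRCm38, the assembly named mm10), with a length for 21556 symbols. Alternatives were DESeq2 1.42.0, limma-voom 3.58.1, other scalings, filters, a replicate block and each library left out. Steps were tested on simulated data.

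The members and lists were chosen with earlier results of these data known. Named from each list are the 3 genes with the smallest p, any called, the most abundant per kb, and, for likeness, the 2 nearest genes per factor. Depth of 1106891 to 1265239 counts leaves genes of a few counts untested.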

Additional observations from a re-analysis of the deposited data

How the results depend on the processing

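The 8 factors were called 0 times under every alternative tried, and their log2 fold changes kept their direction in 149 of 160 recomputed values. The 11 that turned belonged to Zbtb16, Rora, Id2 and Ahr. Zbtb16 stood at -0.02 with upper-quartile factors, between -0.42 and 0.63 with a library left out under TMM scaling, and between -0.34 and 0.11 on the CD3 scale. Rora ran from -0.11 to 0.63 with a library left out under TMM scaling and from -0.07 to 0.13 on the CD3 scale, Id2 from -0.45 to 0.26 and from -0.70 to 0.11, and Ahr on the CD3 scale from -0.02 to 0.33. The turning values were -0.15 and -0.42 for Zbtb16 without Aire-/- replicate 2 and Aire+/+ replicate 1, 0.24 and 0.26 for Id2 without Aire-/- replicate 2 and Aire+/+ replicate 2, and -0.07 and -0.03 for Rora on the CD3 scale. With a library left out under TMM scaling, Sox13 stayed between 0.44 and 1.10, Maf between 0.32 and 0.72, Irf4 between -0.75 and -0.26, Batf between -0.28 and -0.19 and Ahr between 0.03 and 0.72. On the CD3 scale the ranges were 0.50 to 0.59 for Sox13, 0.20 to 0.41 for Maf, -0.97 to -0.46 for Irf4 and -0.78 to -0.14 for Batf, whose value was -0.14 without Aire+/+ replicate 1 and -0.78 without Aire+/+ replicate 2. On the CD3 scale without Aire+/+ replicate 2, Irf4 came to -0.97 (adjusted p = 0.054, edgeR), in a fit that called 402 genes lower.

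Counts of called genes moved more. Without a filter 21 genes were called higher and 26 lower, limma-voom called 1 lower, and the replicate block called 2 higher and 4 lower; the numbers share no stated origin. Each of the 4 libraries moved the counts when left out, to 5 to 21 genes higher and 6 to 42 lower, with both highest counts without Aire+/+ replicate 2. On the CD3 scale the lower calls numbered 4 without Cd247 and 3 by limma-voom, and with a library left out 0 to 5 genes were higher and 2 to 402 lower, the highest again without Aire+/+ replicate 2. The cause was not tested. A genotype left with 1 library is assumed to vary like the other. Leaving out Rn45s, the ribosomal RNA precursor, was added after seeing the data. Sox4, at 0 to 7 counts per library, was tested only without a filter, where 0 of 9 factors were called.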
